A study of Mus musculus with 32 samples.

Results

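The genes of the respiratory chain and the ATP synthase that are encoded in the nucleus were taken as every gene whose single annotated symbol begins with Nduf (complex I), Uqcr (complex III), Cox4 to Cox8 (complex IV, cytochrome c oxidase) or Atp5 (complex V, the ATP synthase). The rule found 72 genes of the 13675 genes that had a probe set of their own, namely 30 of complex I, 6 complex I assembly factors, 7 of complex III, 15 of complex IV and 14 of complex V. Each gene was followed through its probe set of highest mean signal. Total RNA of the mouse cardiac ventricle had been measured on 2 types of Affymetrix array, with 67 of the genes read on the first type and 5 only on the second. On each type there were 3 arrays from mice with a heart-specific AT1 transgene in cardiac failure, 8 arrays from mice with the same transgene and cardiac hypertrophy, and 5 arrays from wild type control mice. AT1 is not written out in the labels (the usual meaning in the heart is an angiotensin II receptor), and they name neither the promoter of the transgene nor the strain, sex, age or time point. Whether each sample is 1 animal is also not stated, so the p-values cover the spread between the deposited samples, which can be partly technical.

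In heart muscle, complexes I and III pass electrons from nutrients to cytochrome c and complex IV passes them on to oxygen. These 3 complexes pump protons out of the mitochondrial matrix, and the ATP synthase uses the return of those protons to make ATP. The heart depends on this route for most of its ATP, and several complex IV subunits exist in a muscle isoform and a form found in most tissues.

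Of the 72 genes, 62 passed the filter on dim probe sets, 59 of them on the first array type (25 of complex I, 7 of complex III, 14 of complex IV and 13 of complex V) and 3 on the second (Ndufs7, Ndufaf3 and Ndufaf8). The 10 genes that were not tested were Atp5j2, Cox8a, Ndufa1, Ndufa12, Ndufaf1, Ndufaf2, Ndufaf4, Ndufaf5, Ndufc2 and Ndufs4. Values below are signals, that is intensities on a linear scale as deposited, and differences are on a log2 scale, from a limma fit over all 3 groups with values adjusted by the Benjamini-Hochberg method over all tested probe sets of the array type. A difference is called when its adjusted p is under 0.05. Probe sets bind with different strength, so signals of different genes do not rank their transcripts. Because this is bulk tissue, fewer cells of a type and less RNA per cell cannot be told apart.

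Failure arrays had lower signals than wild type arrays for most of these genes, but no single gene passed the test. Of the 59 genes on the first type, 55 had a difference below 0 in failure against wild type, with a median of -0.34 and a median standard error of 0.19. The median of all 6980 tested probe sets was 0.04, and 41.5% of them were below 0. The limma fit called 0 of the 59 genes, against 0.143% of all tested probe sets. At an unadjusted p under 0.05, 20 of the 59 were lower and 0 higher, against 3.54% of all tested probe sets lower. Over all 6980 tested probe sets, 247 were lower and 499 higher at that threshold. Every failure array lay below every wild type array for 21 of the 59, against 4.68% of all tested probe sets. The reverse order was seen for 0 of the 59, and its share over all probe sets is not given here. The 3 genes of the second type had differences of -0.54 ± 0.23 for Ndufs7, -0.08 ± 0.17 for Ndufaf8 and -0.05 ± 0.18 for Ndufaf3 (log2, SE), with 0 called against 0.357% of the tested probe sets there.

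The count of called genes depended on the fit. When limma gave each array a weight by its own scatter, 30 of the 59 were called lower and 0 higher, against 5.04% of all tested probe sets called lower. Over all 6980 tested probe sets, that fit called 352 lower and 650 higher. The 30 genes were 12 of complex I, 4 of complex III, 5 of complex IV and 9 of complex V. The largest weight went to failure replicate 2 (3.45) and the smallest to hypertrophy replicates 1 and 7 (0.253 and 0.345). With only the failure and wild type arrays in the fit, 4 were called lower (Cox7a1, Ndufv3, Ndufc1 and Atp5pb), against 0.63% of all tested probe sets. With every array scaled to the same median, 2 were called lower (Cox7a1 and Ndufv3), against 0.258% of all tested probe sets.

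**Figure D1:**
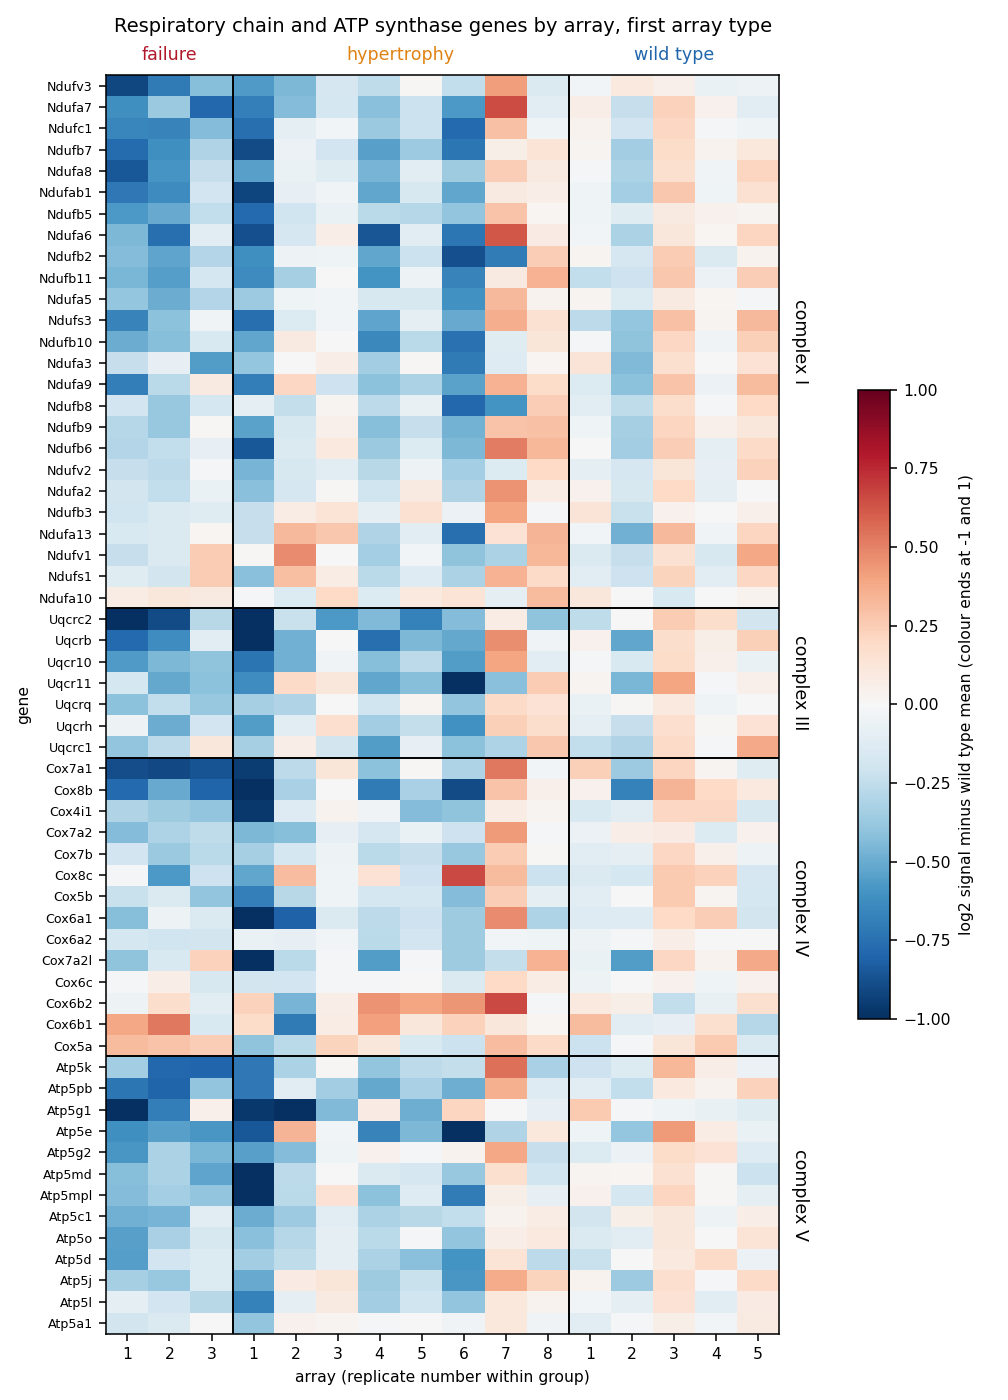
Log2 signal of the 59 tested genes of the first array type (rows, ordered by complex) on each of the 16 arrays (columns, by group), minus the mean of the 5 wild type arrays for that gene. The 3 failure columns are below the wild type mean for 48 to 56 of the 59 genes, hypertrophy replicate 1 for 56 and hypertrophy replicate 7 for 12.

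The arrays of a group did not stand together. The median of the 59 genes relative to the wild type mean was -0.41, -0.37 and -0.19 on the failure arrays (log2). On the 8 hypertrophy arrays it ran between -0.56 in replicate 1 and 0.24 in replicate 7, with a median of -0.16. On the 5 wild type arrays it lay between -0.18 and 0.18. The failure arrays were thus all below the wild type arrays, with failure replicate 3 (-0.19) next to wild type replicate 2 (-0.18), whereas the hypertrophy arrays overlapped both groups. Over all tested probe sets the same median lay between 0.01 and 0.07 on the failure arrays, between -0.19 and 0.12 on the hypertrophy arrays and between -0.04 and 0.05 on the wild type arrays. Hypertrophy replicates 1 and 7 were the lowest and the highest array of the 16 by both medians.

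**Figure D2:**
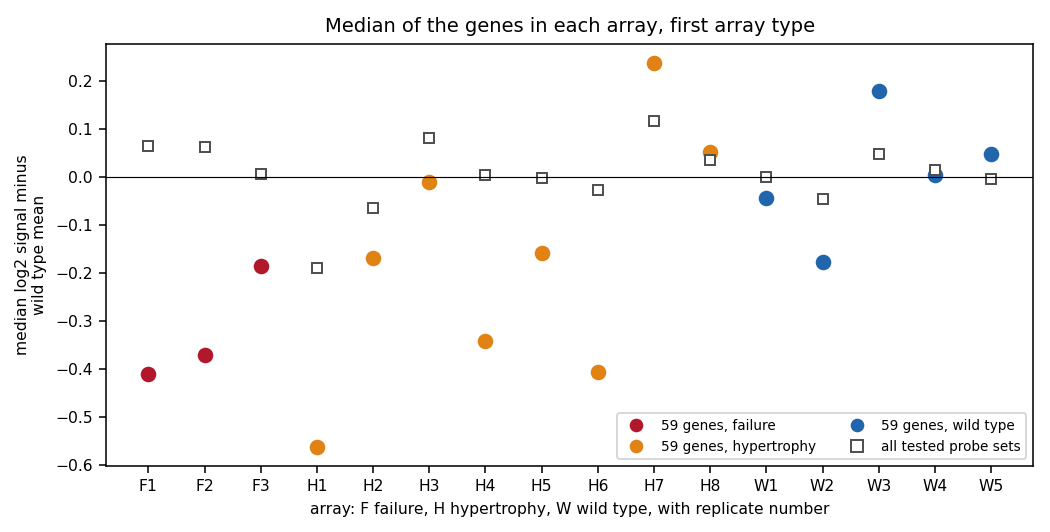
Median log2 signal relative to the wild type mean on each array of the first type, for the 59 respiratory chain and ATP synthase genes and for all 6980 tested probe sets. The 3 failure arrays lie between -0.41 and -0.19 for the 59 genes and between 0.01 and 0.07 for all probe sets, and the hypertrophy arrays spread from -0.56 to 0.24 for the 59 genes.

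Of the 5' over 3' ratios and marker sums of the first type, only the Actb ratio had no overlap between failure and wild type. Array medians overlapped on the first type, at 110 to 120 in failure and 106 to 113 in wild type. On the second type they did not, at 77.3 to 79.7 in failure and 72.7 to 75.1 in wild type. The signal of the 5' probe set of the Actb control over its 3' probe set was 1.10, 0.765 and 1.02 on the failure arrays, 0.357 to 0.992 on the hypertrophy arrays and 0.545 to 0.752 on the wild type arrays. With that ratio as a covariate, the median difference of the 59 genes in failure against wild type was -0.22, with 49 below 0 and 0 called, beside a median of 0.12 over all tested probe sets. The same fit gave complex IV a median of -0.03, with 7 of 14 below 0. Because the ratio did not overlap between failure and wild type, this fit cannot fully separate its part from that of the group. The Gapdh ratio was 0.0487 in hypertrophy replicate 7 and 0.468 in replicate 6, and 0.806 to 1.11 on the other arrays. Summed signals of the 8 cardiomyocyte markers measured were 41306 to 42269 in failure, 36936 to 45788 in hypertrophy and 38835 to 45240 in wild type, which fits the labelled tissue. Those of the 8 fibroblast markers were 3780 to 7466 in failure, 2418 to 5617 in hypertrophy and 3604 to 4407 in wild type. Their median difference in failure against wild type was 0.61, beside 0.49 for the atrial, 0.39 for the erythroid and 0.02 for the cardiomyocyte markers. The atrial and erythroid medians rest on 2 tested genes each. Atrial sums were 417 to 1519 in failure and 336 to 854 in wild type, and erythroid sums 3892 to 10383 and 4457 to 6471. In the 5 other lists (endothelial, macrophage and leukocyte, smooth muscle, skeletal muscle, brown fat) the median difference lay between -0.24 and 0.09. Of these, skeletal muscle had 2 tested genes and brown fat 1. No marker of any list was called, and none was below the floor on every array. The part of other cell types in the results was not tested.

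Complex I takes electrons from NADH, and its products here had a median difference of -0.37 in failure against wild type, with 25 of 26 tested genes below 0. Of the 26, 9 were lower at an unadjusted p under 0.05, against 3.54% of all tested probe sets of the first array type. Every failure array lay below every wild type array for 6, against 4.68% there. The 26 include Ndufs7 of the second type, where 3.36% were lower at an unadjusted p under 0.05. Ndufv3, a small accessory subunit at the NADH-binding tip (chr17:31520115-31531326, GRCm38.p6), had signals of 648, 745 and 902 on the failure arrays. On the hypertrophy arrays they were 821 to 1623 with a median of 1054, and on the wild type arrays 1189, 1297, 1260, 1160 and 1170. The 3 failure arrays were all below the 5 wild type arrays, and failure and hypertrophy overlapped. The difference was -0.68 ± 0.17 against wild type (log2, SE, limma adjusted p = 0.133) and -0.51 ± 0.16 against hypertrophy (adjusted p = 0.299). These were -0.34 and -0.25 with the Actb ratio as a covariate.

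Ndufc1, a small subunit of the membrane arm, had signals of 924, 912 and 1073 in failure, 845 to 1773 with a median of 1301 in hypertrophy, and 1488, 1269, 1677, 1439 and 1403 in wild type. Failure again lay wholly below wild type, by -0.58 ± 0.20 (log2, SE, limma adjusted p = 0.279), and inside the hypertrophy range. Ndufa8, an accessory subunit on the intermembrane space side, had 939, 1122 and 1446 in failure, 1158 to 2003 with a median of 1564 in hypertrophy, and 1674, 1355, 1885, 1651 and 1959 in wild type. Failure replicate 3 exceeded wild type replicate 2, so the groups overlapped, and the difference was -0.56 ± 0.18 (adjusted p = 0.262).

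The other accessory subunits of complex I ranged widely in failure against wild type, and those given here were chosen after their values were seen. Ndufa7 had 1068 ± 155 on the 3 failure arrays and 1606 ± 194 on the 5 wild type arrays (mean ± SD), without overlap. Ndufa5 had 2692 ± 187 in failure against 3530 ± 201 in wild type, and Ndufb5 had 2458 ± 306 against 3325 ± 188, both also without overlap. Ndufa13, Ndufb3, Ndufa2 and Ndufb6 differed by -0.09, -0.15, -0.16 and -0.21 (log2), all with overlap. Ndufs7, the core subunit that carries the last iron-sulfur cluster before ubiquinone, was read on the second array type and had 1030, 1234 and 1731 in failure against 1803, 1567, 2122, 1900 and 2135 in wild type, which overlapped. Of the core subunits at the NADH entry, Ndufv1, which binds NADH and the flavin, differed by -0.04 ± 0.20, Ndufs1 by -0.02 ± 0.18 and Ndufv2 by -0.17 ± 0.14 (log2, SE). A second probe set of Ndufv2 gave -0.82, so the probe sets of that gene disagreed in size. Ndufa10, an accessory subunit on the matrix side, was the only complex I gene above 0, at 0.09 ± 0.11, with signals of 253, 261 and 256 in failure and 217 to 261 in wild type.

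Complex III carries electrons from ubiquinol to cytochrome c, and all 7 of its tested genes were below 0, with a median of -0.36. At an unadjusted p under 0.05, 3 were lower, against 3.54% of all tested probe sets. Uqcrc2, a core protein on the matrix side (chr7:120635189-120659523), had signals of 751, 856 and 1311 in failure, 638 to 1673 with a median of 1172 in hypertrophy, and 1333, 1596, 1899, 1796 and 1398 in wild type. Failure replicate 3 was close to wild type replicate 1, and the groups did not overlap. Uqcrc2 differed by -0.75 ± 0.24 in failure against wild type (log2, SE, limma adjusted p = 0.259) and by -0.50 ± 0.19 in hypertrophy against wild type (adjusted p = 0.960). The value for failure against wild type was -0.41 with the Actb ratio as a covariate. Its probe set is one of 18 among the tested genes whose name has a letter before its ending. The letter of Uqcrc2, shared by Cox4i1, Cox6a1 and others, marks that the probe set may also bind related transcripts.

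Of the small subunits of complex III, 2 had every failure array below every wild type array, against 4.68% of all tested probe sets, and 3 overlapped. Uqcrq had 2923, 3279 and 2982 in failure and 3717, 3907, 4151, 3765 and 3894 in wild type, with a difference of -0.35 ± 0.13 (limma adjusted p = 0.352). Uqcr10 had 1488, 1615 and 1672 in failure and 2173, 1982, 2509, 2291 and 2111 in wild type, with a difference of -0.47 ± 0.19 (adjusted p = 0.373). In both genes every failure array was below every wild type array, with Actb covariate values of -0.21 and -0.20, while the hypertrophy arrays (2958 to 4444 for Uqcrq, 1332 to 2900 for Uqcr10) overlapped both. Uqcrb, Uqcr11 and Uqcrh differed by -0.50 ± 0.27, -0.36 ± 0.28 and -0.24 ± 0.19 (log2, SE) and overlapped wild type. The second core protein gene, Uqcrc1, also overlapped, with 2080 ± 394 (SD, n = 3) in failure against 2368 ± 476 (SD, n = 5) in wild type.

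Complex IV hands the electrons to oxygen, and it was the most mixed of the complexes in failure against wild type. Of its 14 tested genes, 11 were below 0, with a median of -0.23, and the 3 above 0 had low signals. Cox7a1, the muscle isoform of subunit VIIa (chr7:30184171-30186030), had signals of 1165, 1152 and 1185 in failure. In hypertrophy they were 1116 to 3108 with a median of 1958, and in wild type 2547, 1677, 2498, 2205 and 1988. The failure arrays were close to each other and below all wild type arrays, and of the hypertrophy arrays only replicate 1 was lower. The difference was -0.89 ± 0.23 against wild type (log2, SE, limma adjusted p = 0.150) and -0.72 ± 0.22 against hypertrophy (adjusted p = 0.263). With the Actb ratio as a covariate the 2 values were -0.52 and -0.45.

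Cox7a2, the form of the same subunit found in most tissues, had 1935, 2103 and 2184 in failure, 1908 to 3494 with a median of 2387 in hypertrophy, and 2508, 2728, 2756, 2374 and 2688 in wild type. It too lay wholly below wild type in failure, by -0.33 ± 0.15 (log2, SE, limma adjusted p = 0.453), and by -0.05 with the Actb ratio as a covariate. The log2 ratio of Cox7a1 over Cox7a2 on the same array shows whether the isoforms differed by unequal amounts. It was -0.73, -0.87 and -0.88 on the failure arrays, -0.77 to -0.07 with a median of -0.24 on the hypertrophy arrays, and 0.02, -0.70, -0.14, -0.11 and -0.43 on the wild type arrays. Failure replicate 1 (-0.73) lay just below wild type replicate 2 (-0.70), and above hypertrophy replicate 1 (-0.77). The ratio differed by -0.55 between failure and wild type (two-sided exact permutation p = 0.0357, adjusted p = 0.161 over the 9 ratio tests) and by -0.52 between failure and hypertrophy (exact permutation p = 0.0121, adjusted p = 0.109). Between hypertrophy and wild type it differed by -0.04 (exact permutation p = 0.798). The smallest p these designs allow is 0.0179 for failure against wild type, 0.00606 for failure against hypertrophy and 0.000777 for hypertrophy against wild type, and none of the 9 tests passed after adjustment. The 9 include 3 of Cox8b over Cox8a, which are not read here because Cox8a was near background.

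Subunit VIa also has a muscle isoform, Cox6a2, and a common one, Cox6a1. Cox6a2 had 6090, 6011 and 6051 in failure, 5382 to 6758 with a median of 6550 in hypertrophy, and 6630, 6784, 7189, 6920 and 6909 in wild type. The failure arrays were again below all wild type arrays, with a small difference of -0.19 ± 0.10 (log2, SE, limma adjusted p = 0.535). Cox6a1 had 533, 693 and 651 in failure, 329 to 994 with a median of 589 in hypertrophy, and 657, 657, 824, 849 and 631 in wild type, so that the groups overlapped (-0.21 ± 0.25 in failure against wild type). This direction turned with the Actb ratio as a covariate, to 0.36 ± 0.22 (log2, SE). The ratio of Cox6a2 over Cox6a1 differed by 0.02 in failure against wild type, by -0.19 in failure against hypertrophy and by 0.21 in hypertrophy against wild type (exact permutation p = 0.893, p = 0.545 and p = 0.386).

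The muscle isoform of subunit VIII in rodents, Cox8b, had 902, 1090 and 884 in failure, 775 to 1879 with a median of 1235 in hypertrophy, and 1587, 965, 1951, 1774 and 1654 in wild type. Failure overlapped wild type only through wild type replicate 2, and the difference was -0.69 ± 0.27 (log2, SE, limma adjusted p = 0.361). Its common counterpart Cox8a was below the floor of 39.5 on 3 of 3 failure, 3 of 8 hypertrophy and 4 of 5 wild type arrays, so it gave no measured level to set Cox8b against. Cox4i1, the common isoform of the regulatory subunit IV, had 1566, 1508 and 1464 in failure and 1728 to 2228 in wild type without overlap. It differed by -0.35 ± 0.20 (log2, SE, limma adjusted p = 0.570), or -0.15 with the Actb ratio as a covariate. A second probe set of Cox4i1, with mean signals of 103 in failure and 106 in wild type, gave -0.04 ± 0.18. Another, on the second array type, gave -0.28 ± 0.23. Cox7a2l, a relative of Cox7a2 that helps to join complexes III and IV, had 434, 518 and 672 in failure and 391 to 746 in wild type, which overlapped.

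The complex IV genes above 0 in failure against wild type were Cox5a, Cox6b1 and Cox6b2. With Ndufa10 (7.95), they had the lowest mean log2 signals of the tested genes of the first array type (7.92, 7.01 and 8.08). Whether low signal had a part in their direction was not tested. Cox5a, a subunit on the matrix side, had 293, 287 and 281 in failure, 179 to 293 with a median of 234 in hypertrophy, and 203, 233, 256, 282 and 213 in wild type. Failure replicates 1 and 2 were above every wild type array and replicate 3 was not, and the difference was 0.28 ± 0.16 against wild type (log2, SE, limma adjusted p = 0.583) and 0.31 ± 0.15 against hypertrophy (adjusted p = 0.500). Cox6b1 differed by 0.25 ± 0.21. Cox6b2, known as a testis isoform, differed by 0.00 ± 0.19, and its second probe set by 0.44.

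**Figure D3:**
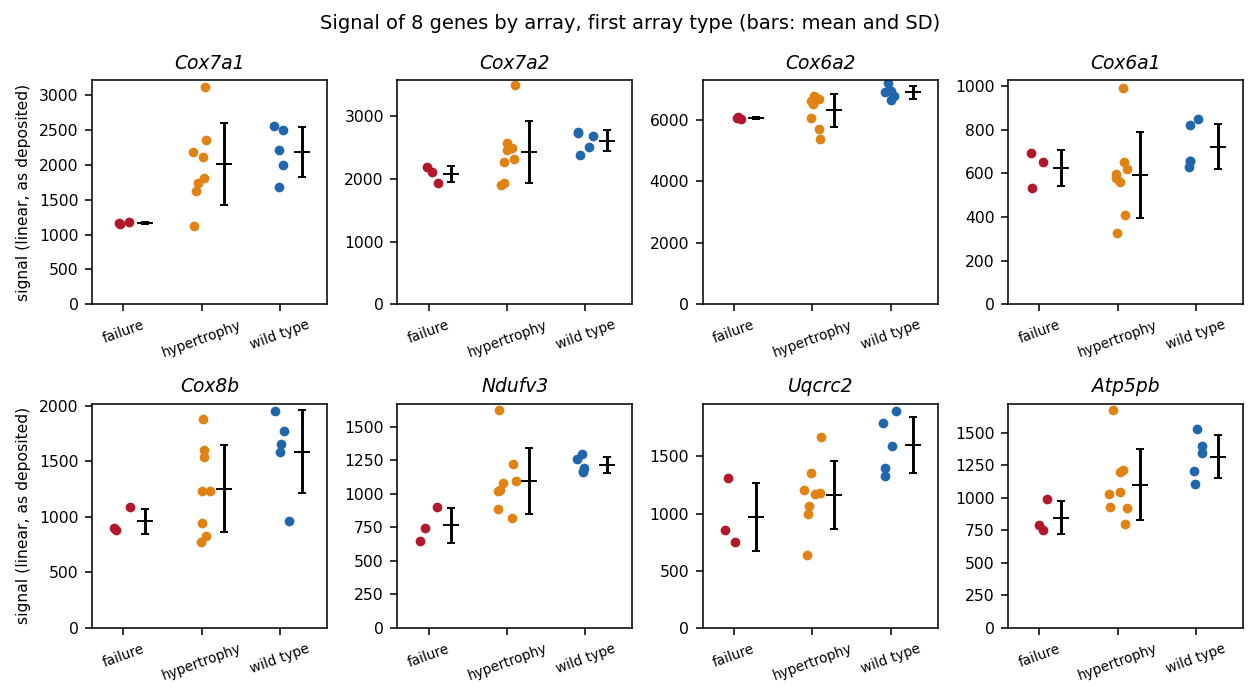
Signal (linear intensity) of 8 genes on every array of the first type, in failure, hypertrophy and wild type, with the group mean and SD. The failure arrays of Cox7a1 lie at 1152 to 1185, below the 5 wild type arrays at 1677 to 2547, whereas for Cox6a1 2 of the 3 failure arrays lie within the wild type range and replicate 1 (533) below it.

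All 13 tested genes of the ATP synthase were below 0 in failure against wild type and also when hypertrophy was set against wild type. In failure against hypertrophy all 13 were too, but 12 were with array weights and 7 with the Actb ratio as a covariate. In failure against wild type the median was -0.39. At an unadjusted p under 0.05, 6 were lower, against 3.54% of all tested probe sets. For 7, every failure array was below every wild type array, against 4.68%. Atp5pb, subunit b of the stalk that holds the catalytic head in place (chr3:105942698-105959263), had 795, 754 and 994 in failure, 797 to 1677 with a median of 1036 in hypertrophy, and 1210, 1104, 1402, 1342 and 1532 in wild type. Failure and wild type did not overlap, and the difference was -0.64 ± 0.19 (log2, SE, limma adjusted p = 0.218).

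Atp5k, the membrane subunit e, had 696, 514 and 511 in failure, 540 to 1300 with a median of 726 in hypertrophy, and 769, 808, 1116, 932 and 853 in wild type. It differed by -0.65 ± 0.21 against wild type (log2, SE, limma adjusted p = 0.262) and by -0.43 ± 0.20 against hypertrophy (adjusted p = 0.473). Atp5g2, one of the genes for subunit c of the rotor ring, had 313, 376 and 340 in failure and 425, 450, 530, 517 and 427 in wild type, and differed by -0.45 ± 0.17 (adjusted p = 0.337). In both genes the failure arrays were below all wild type arrays. With the Actb ratio as a covariate Atp5k was at -0.39 and Atp5g2 at -0.06. The central shaft genes differed by -0.35 ± 0.14 for Atp5c1 (subunit gamma), -0.29 ± 0.15 for Atp5d (subunit delta) and -0.58 ± 0.32 for Atp5e (subunit epsilon). Atp5e had 621, 651 and 634 in failure and 725 to 1276 in wild type, without overlap. A second probe set of Atp5d gave -0.76 and another -0.17. Atp5a1, the catalytic head's subunit alpha, had 4033 ± 278 (SD, n = 3) in failure against 4350 ± 234 (SD, n = 5) in wild type, which overlapped.

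Failure against hypertrophy compares mice with the same transgene. Of the 59 genes of the first type 52 were below 0, with a median of -0.14 beside 0.05 over all tested probe sets. With the Actb ratio as a covariate 37 were below 0, with a median of -0.07 beside 0.11, and complex IV turned to a median of 0.05, with 5 of 14 below 0. The limma fit called 0 genes, against 0.0% of all tested probe sets, and 5 were lower at an unadjusted p under 0.05, against 2.78%. These were Cox7a1, Ndufv3, Ndufa8 (-0.39 ± 0.17, log2, SE), Atp5k and Atp5g2 (-0.35 ± 0.16). With the Actb covariate Atp5k was at -0.23 and Atp5g2 at -0.05. In none of the 59 were all failure arrays below all hypertrophy arrays, against 0.788% of all tested probe sets. With array weights limma called 2 of the 59 lower, Cox7a1 and Ndufv3, against 1.09% of all tested probe sets. On the second type 0 of 3 genes were called, against 0.0286% of the tested probe sets.

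In hypertrophy against wild type the same direction was seen at a smaller median. Of the 59, 54 were below 0, with a median of -0.18 beside -0.01 over all tested probe sets, and 0 were called, against 0.0%. At an unadjusted p under 0.05, 3 were lower, against 2.22% of all tested probe sets: Uqcrc2, Ndufb2 (-0.35 ± 0.16, log2, SE) and Atp5d (-0.27 ± 0.12). Ndufb2, a membrane arm subunit of complex I, had 1425 to 3120 with a median of 2044 in hypertrophy and 2330 to 3135 in wild type. Atp5d had 1293 to 2160 with a median of 1608 in hypertrophy and 1678 to 2239 in wild type. Both overlapped, and in none of the 59 were all hypertrophy arrays below all wild type arrays, against 0.0716% of all tested probe sets. On the second type 0 of 3 genes were called, against 0.171% of the tested probe sets. This comparison and failure against wild type share the 5 wild type arrays. No test set the 2 differences against each other other than failure against hypertrophy.

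**Figure D4:**
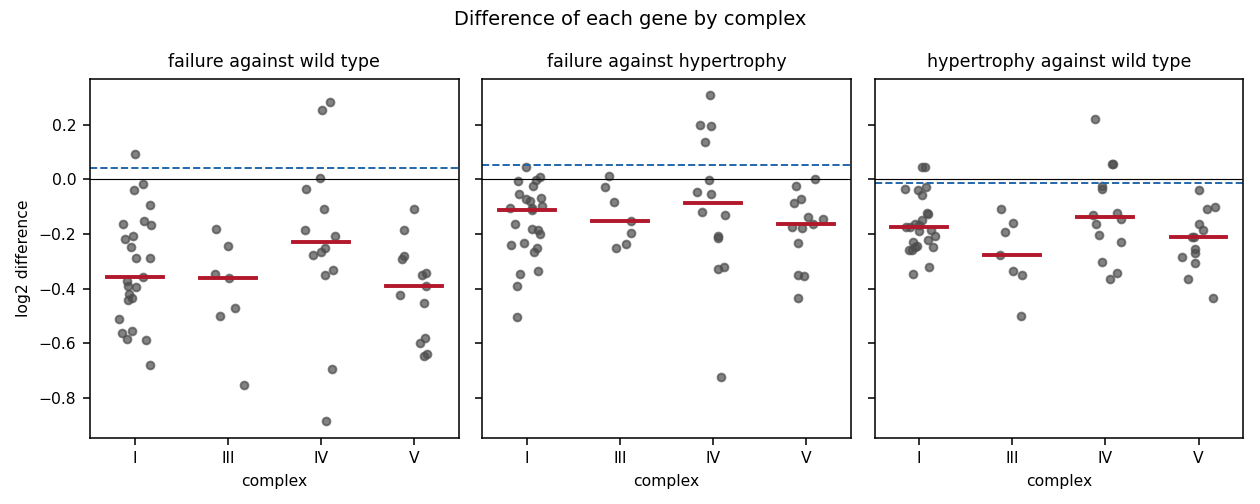
Log2 difference of each tested gene of the first array type (points), by complex, in failure against wild type, failure against hypertrophy and hypertrophy against wild type, with the median of each complex as a red bar and the median of all tested probe sets as a dashed blue line. In failure against wild type the complex V points all lie below 0, and complex IV reaches from -0.89 to 0.28.

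Within groups the genes varied together from array to array. Over the 16 arrays, after the group means were taken out, the median correlation between 2 of the 59 genes was 0.60, and 90.4% of the pairs were above 0. Pairs of all tested probe sets had a median of 0.09, with 58.9% above 0. By complex the median was 0.72 in complex I, 0.58 in complex V, 0.52 in complex III and 0.47 in complex IV. All pairs share the same arrays, so these correlations describe the arrays and carry no test. Ndufb6 followed the median of the other genes most closely, with a correlation of 0.98, and Cox6b1 (-0.29), Cox6b2 (-0.13) and Ndufa10 (0.08) followed it least. These 3 were also among the 4 genes above 0 in failure against wild type. Those 4 had the lowest mean log2 signals of the 59 (7.01 to 8.08), and the part of low signal was not tested.

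The promoters of the genes were searched for the motifs of regulators known to bind respiratory genes. Windows of 250 bases before to 50 after the gene's start were taken from RefSeq (GRCm38.p6), and 60 of the 72 genes matched, with 65 windows. The core of the NRF1 motif, GCGCATGC on either strand, was present in 10 of 65 windows (15.4%), against 2.71% of all 32851 windows. The ETS motif CCGGAAGT, as bound by GABP, was in 4 windows (6.15%, against 3.89% of all), and the ERR motif CAAGGTCA in 1 (1.54%, against 1.56%). Among the isoform genes, Cox6a1 held the NRF1 core and Cox8a the ETS motif. Cox8a held the ETS motif at bases -6 and 32 from the start, and only the match at -6 lies in the stretch shown. These stretches of the 2 promoters are given with the motif in capitals, 5' to 3' on the gene's strand.
Cox6a1, chr5:115349059-115349178, minus strand: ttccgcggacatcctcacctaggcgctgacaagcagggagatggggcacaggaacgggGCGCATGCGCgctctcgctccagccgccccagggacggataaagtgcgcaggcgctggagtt
Cox8a, chr19:7217607-7217726, minus strand: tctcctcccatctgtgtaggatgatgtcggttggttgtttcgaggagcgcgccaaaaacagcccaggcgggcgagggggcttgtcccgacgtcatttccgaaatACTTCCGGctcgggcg
In Cox6a1 the NRF1 core occurs on both strands at once, overlapping, which gives the capitals their length. The windows of Cox7a1, Cox7a2, Cox7a2l and Cox8b held none of the 3 letter strings, and Cox4i1 and Cox6a2 were not searched, as they had no window. The 10 genes with the NRF1 core, of 60 with a window, were Atp5g2, Atp5k, Atp5l, Cox6a1, Ndufa6, Ndufa8, Ndufaf4, Ndufaf5, Uqcr11 and Uqcrc1. A match of letters is not a binding site, and the windows of all genes include those of non-coding genes.

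Genes that work beside the complexes were read from lists of named genes. Of complex II (succinate dehydrogenase), cytochrome c and the electron transfer flavoproteins, 8 of 8 were tested and 0 called, with a median of -0.25 in failure against wild type and 6 below 0. Etfb, a subunit of the electron transfer flavoprotein, had the lowest p there, with 1481 ± 150 (SD, n = 3) in failure against 1943 ± 472 (SD, n = 5) in wild type (limma adjusted p = 0.639). Of the carriers of ADP, phosphate and protons, 6 of 9 were tested and 0 called, with a median of -0.22 and 6 below 0. Slc25a3, the mitochondrial phosphate carrier, had 2073 ± 569 in failure and 2824 ± 227 in wild type, without overlap (adjusted p = 0.420).

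Of the assembly factors 18 of 26 were tested and 0 called, with a median of -0.10 in failure against wild type and 15 below 0. Cox18, which inserts a complex IV subunit into the membrane, had 449 ± 12.9 (SD, n = 3) in failure against 575 ± 56.9 (SD, n = 5) in wild type, without overlap (limma adjusted p = 0.319). Of the regulators of mitochondrial gene transcription 9 of 16 were tested and 0 called, with a median of 0.08 and 4 below 0. Nrf1, a transcription factor of respiratory genes, was read on the second type and had 387 ± 72.8 in failure and 610 ± 92.1 in wild type, without overlap, a difference of -0.66 ± 0.18 (log2, SE, adjusted p = 0.109). Its coactivator genes Ppargc1a and Ppargc1b were too dim to be tested. In failure against hypertrophy the medians of the 4 lists lay between -0.09 and 0.10, and in hypertrophy against wild type between -0.14 and -0.01.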

How the data were processed

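Ventricle RNA was measured on 2 Affymetrix array types, 16 arrays each. The deposited files hold linear intensities, with 1 value for each probe set, and the sources used here do not say how the authors scaled or summarised them. Array medians were 91.8 to 121 (first type) and 69.3 to 80.6 (second type). The number of arrays limits the precision. Values were used as deposited, since trimmed means varied by 4.82% and 3.31% (coefficient of variation), under a limit of 5%, though medians varied by 6.60% and 4.65%. Values under the 20th percentile of a type (39.5 and 27.5) were raised to it before log2. Probe sets at or above their own array's median on at least 3 arrays were tested. Each type was fitted apart with limma 3.58.1 in R 4.3.3, with 1 coefficient per group over all 16 arrays. The fit was run on simulated data with independent noise and a change of 1 (log2), larger than the differences of these genes. That run does not show how the fit performs at smaller differences. Names came from the platform annotation, and symbols were updated by gene identifier (10839 of 10855 and 10572 of 10603 matched); 13 probe sets annotated to several genes were left out. Isoform ratios were compared by exact permutation of arrays. Figures were drawn with matplotlib 3.10.9.

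Genes described one by one are the isoform genes, the 3 genes of each complex with the lowest p in failure against wild type and the 2 in each other comparison, and the lowest of each list; others were chosen after their values were seen. The genes and lists were chosen with earlier results of these data known.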

Additional observations from a re-analysis of the deposited data

Results flagged for a closer look

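One value among the named genes lay apart from its group. Ndufb7, a membrane arm subunit of complex I, had a signal of 2041 in wild type replicate 2, below the other 4 wild type arrays at 2654 to 2947, with 1522, 1698 and 2109 in failure. Of 42 groups of arrays checked in this way 1 was picked out, and chance picks out about 1 in 20. The same array had the lowest wild type median over the 59 genes, at -0.18 (log2).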

How the results depend on the processing

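The number of called genes in failure against wild type on the first array type, 0 as reported, was 30 with array weights, 4 with only the 2 groups compared, 2 with median scaling, and 1 without hypertrophy arrays 6 and 7. Leaving out 1 array at a time gave 0 to 1, the 1 being Cox7a1 without hypertrophy replicate 1 (adjusted p = 0.0439) and Ndufv3 without hypertrophy replicate 7 (adjusted p = 0.0401). Array weights also called 2 genes in failure against hypertrophy and 1 of the 3 genes of the second type in failure against wild type. The cause was not tested. Quantile normalization, other floors and filters, averaged probe sets and a variance trend called 0 in every comparison, as did the Actb ratio on the first type, where alone it was run. Of 22 same-numbered pairs of arrays, 5 correlated above 0.1 (range -0.19 to 0.36). With 3 or 5 such pairs for each 2 groups of a type, this cannot show whether the replicate numbers pair the arrays. With the replicate block 0 genes were called in each comparison, while Cox7a2l in failure against wild type stood at 0.00975 in place of -0.11.

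The median difference of the tested genes was -0.43 to -0.27 in failure against wild type, -0.23 to -0.08 in failure against hypertrophy and -0.24 to -0.13 in hypertrophy against wild type under scaling, no filter and leaving out arrays. With the Actb ratio as a covariate it was -0.22, -0.07 and -0.16 over the 59 genes of the first type. Some signs turned. The Cox6a2 over Cox6a1 ratio in failure against wild type was -0.00725 under quantile normalization and -0.10 to 0.10 leaving out 1 array. The Cox7a1 over Cox7a2 ratio in hypertrophy against wild type was -0.145 to 0.0359 leaving out 1 array. Cox7a2l in failure against wild type was -0.277 to 0.0390 leaving out 1 array. With the Actb ratio as a covariate, Cox6a1 was 0.36 ± 0.22 and Cox7a2l 0.0221 ± 0.36 in failure against wild type (log2, SE). In failure against hypertrophy that fit gave 0.0348 ± 0.21 for Cox4i1, 0.00699 ± 0.14 for Cox7a2 and 0.0126 ± 0.24 for Uqcrc2. Dim genes such as Cox8a limit what can be compared.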
